A study of Mus musculus with 11 samples.

Results

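Metastatic 4C11+ melanoma cells were compared with non-metastatic 4C11- melanoma cells, 3 RNA libraries of each line out of 11 in the series, over all 14272 genes measured. Both lines are mouse melanoma lines derived, together with the pre-malignant line 4C, from melan-a, a spontaneously immortalized melanocyte line, through repeated rounds in which the cells were kept from anchoring. 4C11- and 4C cells have a mesenchymal morphology and melan-a and 4C11+ cells an epithelial one, and 4C11+ cells form lung metastases in mice where 4C11- cells do not. All lines grew in RPMI medium with fetal bovine serum, and melan-a alone also received the phorbol ester PMA. The 4C11+ libraries thus differ from the 4C11- libraries by no added agent. Each stage is represented by 1 cell line, so metastatic ability, morphology and the history of the line cannot be told apart. The libraries of a line are parallel cultures. The error values below come from a fit to all 11 libraries, with a spread per gene shared by all lines. They thus reflect variation among the cultures of every line, melan-a and 4C included, and not only of the compared lines.

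Melanocytes are the pigment cells of the skin. The transcription factors MITF and SOX10 maintain their identity and switch on the enzymes and structural proteins of the melanosome, the organelle in which melanin is made. Melanoma cells can leave this differentiated state for mesenchymal or invasive ones, and in epithelial-mesenchymal transition (EMT) the SNAIL, TWIST and ZEB factors repress junction genes and accompany the production of matrix, contractile proteins and proteases. In melanoma the ZEB and SNAIL families divide these roles differently from carcinoma, with ZEB2 and SNAI2 expressed by melanocytes themselves.

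Levels are log2 counts-per-million (log2 CPM) as deposited, after the libraries were scaled to a common distribution. A difference of 1 between the lines is a doubling on this scale and only approximately of the share of reads. The depth estimated from the spacing of the lowest values was 4.58 to 7.42 M reads in the 4C11- libraries and 4.07 to 5.47 M reads in the 4C11+ libraries. These depths are approximate, since they were read off the scaled values. A gene is called absent from a line when none of its libraries holds more than 3 reads, and its difference is then given as a bound, computed with the absent line at 3 reads. Correlation between libraries ran from 0.888 to 0.971 within 4C11-, from 0.955 to 0.981 within 4C11+ and from 0.704 to 0.757 between the lines. Libraries of a line differed with the exonic length of genes. From the shortest to the longest of 4 equal classes of genes with a mean level of at least 5, the median deviation from the mean of the other libraries of the line went from 0.36 to -0.33 in 4C11- replicate 1, from -0.30 to 0.25 in 4C11- replicate 3 and from -0.24 to 0.31 in 4C11+ replicate 3. Counts that single libraries move are given with and without them. Because the libraries were scaled to a common distribution, 0 reads lie 0.85 higher on the log2 scale in 4C11+ than in 4C11-, which touches differences of the lowest genes. In bulk RNA, fewer cells of a type and less RNA per cell cannot be told apart.

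A large part of the transcriptome separated the metastatic from the non-metastatic line, with about as many genes higher as lower. Of 14272 genes, 4433 (31.1%) passed the test at a Benjamini-Hochberg adjusted p of 0.05, 2233 (15.6%) higher and 2200 (15.4%) lower in 4C11+. The 3 libraries of 1 line lay entirely above or below those of the other for 6708 genes (47%). The median difference over all genes was 0.12 on the log2 scale. By at least 5 log2 units 338 genes were lower and 217 higher. Of genes above 10 reads in every 4C11- library, 486 were absent from 4C11+, against 142 in the reverse direction. The limit of 3 reads lies at 0.02 in 4C11+ and at -1.57 in 4C11-, so a smaller drop counts as a loss than as a gain. With the same levels for both lines, at most 0.02 for low and above 1.37 for high, chosen after the data were seen, the numbers were 347 and 191. The authors kept genes above 1 count-per-million in at least 4 libraries, more than the 3 of a line. A gene expressed in 1 line alone is therefore missing, and a counted gene also had reads in melan-a or 4C. The part of this filter in the unequal numbers was not tested.

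**Figure D1:**
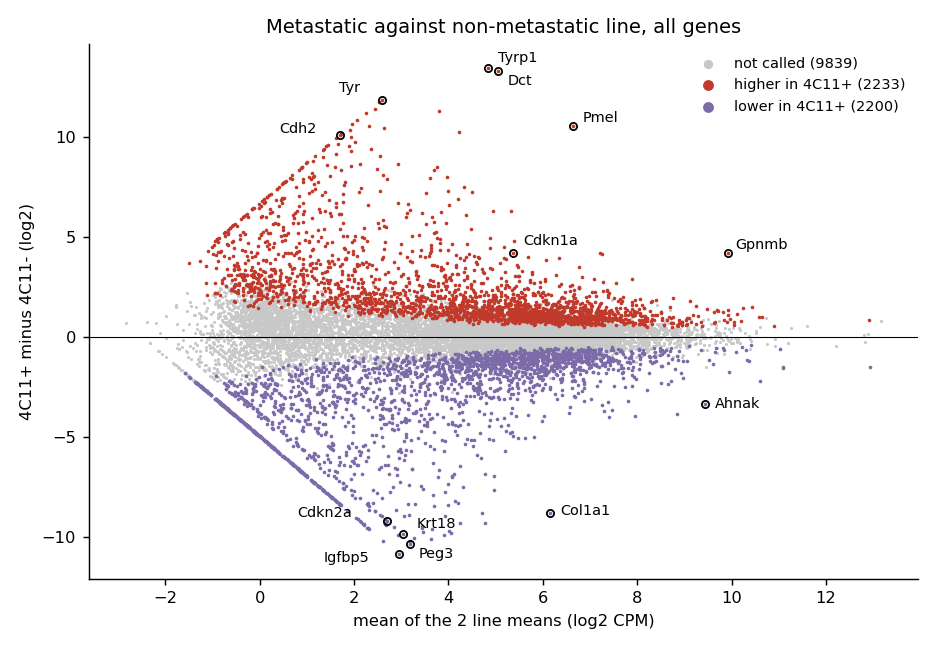
Difference between the lines (4C11+ minus 4C11-, log2) against the mean of the 2 line means (log2 CPM), 1 point per gene. The 2233 higher and 2200 lower calls are coloured, and the outermost points hold the pigment genes Tyrp1 and Dct above and Igfbp5 and Peg3 below.

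The melanin genes showed the largest rise. All 10 listed genes of melanin synthesis and the melanosome matrix were higher in 4C11+ (median difference 10.39), and their libraries did not overlap. Over all genes 31.1% were called and 47% did not overlap. Tyr (tyrosinase, the rate-limiting enzyme of melanin synthesis, GRCm38 chr7:87424771-87493512) read -3.15, -3.44 and -3.44 in the 4C11- libraries and 8.46, 8.39 and 8.70 in the 4C11+ libraries. The 4C11- values are those of 0 reads, and the difference was at least 10.09 (adjusted p = 4.27e-08). Tyrp1 (tyrosinase-related protein 1, a melanosomal enzyme, chr4:80834123-80851719) read 0.69, -3.15 and -3.15 against 11.64, 11.64 and 11.39. The difference was 13.42 ± 1.07 (SE of the fit to all 11 libraries, n = 3 in each compared line, adjusted p = 3.07e-06). Only 4C11- replicate 1 held more than 3 reads of it. Dct (dopachrome tautomerase, the next enzyme of the pathway, chr14:118012790-118052244) read -0.24, -2.58 and -2.01 against 11.81, 11.39 and 11.91, a difference of 13.31 ± 0.82 (adjusted p = 4.07e-07).

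The promoters of these 3 enzymes, as the windows around the start site given by RefSeq (GRCm38.p6), are shown because the M-box TCATGTG, a form of the E-box bound by MITF, is found in each. Capitals mark the motif on either strand, and each sequence runs 5′ to 3′ on the strand of the gene.
Tyr, chr7:87493463-87493762, minus strand: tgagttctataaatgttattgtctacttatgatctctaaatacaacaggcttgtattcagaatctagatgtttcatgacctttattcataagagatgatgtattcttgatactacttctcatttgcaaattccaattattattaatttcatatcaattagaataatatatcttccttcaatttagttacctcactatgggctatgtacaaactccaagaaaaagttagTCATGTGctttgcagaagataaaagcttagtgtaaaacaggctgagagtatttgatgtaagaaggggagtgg
Tyrp1, chr4:80833963-80834262, plus strand: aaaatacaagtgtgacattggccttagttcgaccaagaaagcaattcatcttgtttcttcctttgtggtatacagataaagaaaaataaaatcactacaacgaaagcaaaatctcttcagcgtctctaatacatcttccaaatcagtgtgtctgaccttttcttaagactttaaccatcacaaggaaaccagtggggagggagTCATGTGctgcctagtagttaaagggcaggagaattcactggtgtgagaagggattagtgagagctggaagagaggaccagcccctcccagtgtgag
Dct, chr14:118052197-118052496, minus strand: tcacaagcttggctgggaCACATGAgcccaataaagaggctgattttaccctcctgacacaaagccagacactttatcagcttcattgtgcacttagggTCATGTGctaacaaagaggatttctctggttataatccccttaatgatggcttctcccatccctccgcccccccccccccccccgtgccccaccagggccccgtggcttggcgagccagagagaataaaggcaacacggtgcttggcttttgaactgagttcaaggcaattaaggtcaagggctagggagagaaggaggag
The match begins 22 bases before the start site in Tyr and 47 bases before it in Tyrp1, and Dct has a pair of matches, at 232 and 151 bases. Of the 6 melanin genes with a promoter in the RefSeq table, 4 held TCATGTG (Dct, Slc24a5, Tyr and Tyrp1), against 1239 of all 32851 promoters (3.77%). The promoters of Tyr, Tyrp1 and Dct were picked because they hold the motif. The shares given here therefore describe the promoters and are no test of enrichment. The shorter CATGTG, which every TCATGTG contains, stood in 5 of the 6 and in 14.2% of all promoters. The other common E-box, CACGTG, stood in 0 of the 6 and in 7.15% of all. Both strands were searched, and a match describes the letters and does not show binding.

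Structural and transport proteins of the melanosome moved with the enzymes. Pmel, which builds the fibrils on which melanin is laid down, read 2.54, 0.96 and 0.60 in 4C11- and 12.20, 11.72 and 11.81 in 4C11+, a difference of 10.55 ± 0.50. Mlana, a melanosomal membrane protein, read 0.06, -3.15 and -2.44 against 9.48, 9.54 and 9.26. Gpnmb, a glycoprotein of melanosomes and lysosomes, was the exception in that it was already well expressed in 4C11-, at 9.01, 7.85 and 6.61, and rose to 12.42, 11.91 and 11.72. The transporters Slc45a2, Slc24a5 and Oca2 and the receptor Gpr143 differed by 10.24, 7.30, at least 5.34 and at least 6.67. Among 24 genes of melanosome biogenesis and transport, 14 were higher and 0 lower (median 1.08), 58.3% called beside 31.1% over all genes. Rab38, the small GTPase that carries tyrosinase to melanosomes, was absent from 4C11- and read 8.34, 8.38 and 8.46 in 4C11+ (at least 9.97 higher). Its partner Rab32 read 4.16, 3.44 and 4.06 against 6.29, 6.21 and 6.14, and Rab27a, which docks melanosomes at the cell edge, 4.16, 2.97 and 3.62 against 7.12, 6.69 and 6.68. The motor Myo5a, which works with Rab27a and the linker Mlph, differed by 2.68 ± 0.50 and Mlph by 1.97 ± 0.43. The HPS, BLOC and AP-3 complex subunits ranged from -0.58 (Hps4, adjusted p = 0.173) to 2.02 (Bloc1s3).

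The regulators of the melanocyte followed the same direction with 1 exception. Of 8 transcription factors and receptors measured, 7 were higher and 1 lower (median 5.65, or 4.76 with absent genes at their bounds). Sox10, the neural crest factor upstream of Mitf, read 0.48, 0.06 and -2.01 in 4C11- and 8.02, 7.68 and 8.34 in 4C11+, a difference of 8.50 ± 0.61 (adjusted p = 1.34e-06). Mitf read -0.70, 1.14 and -0.70 against 6.38, 6.23 and 8.76, a difference of 7.21 ± 0.71, with 4C11+ replicate 3 well above its other replicates. The receptors Mc1r and Kit, which bind melanocortin and stem cell factor, were absent from 4C11- and higher in 4C11+ by at least 8.02 and 4.60. The receptor Erbb3 differed by 4.92, Tfap2a by 2.67 and Pax3 by 1.41. Pax3 was thus well expressed in both lines, at 5.49, 5.10 and 5.31 and 6.65, 6.34 and 7.16, whereas the defining melanocyte genes Tyr, Kit and Mc1r were absent from 4C11- cells. Lef1, a nuclear partner of β-catenin, went the other way, from 4.25, 4.44 and 4.06 in 4C11- to absence in 4C11+ (at least 4.23 lower). Genes shared with Schwann cells and neural crest also rose, 6 of the 7 measured, 85.7% called beside 31.1% over all genes. Cdh19, a cadherin of that lineage, was higher by at least 6.73, S100b by 6.21, Pmp22 by 3.84 and Mbp by 2.73.

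**Figure D2:**
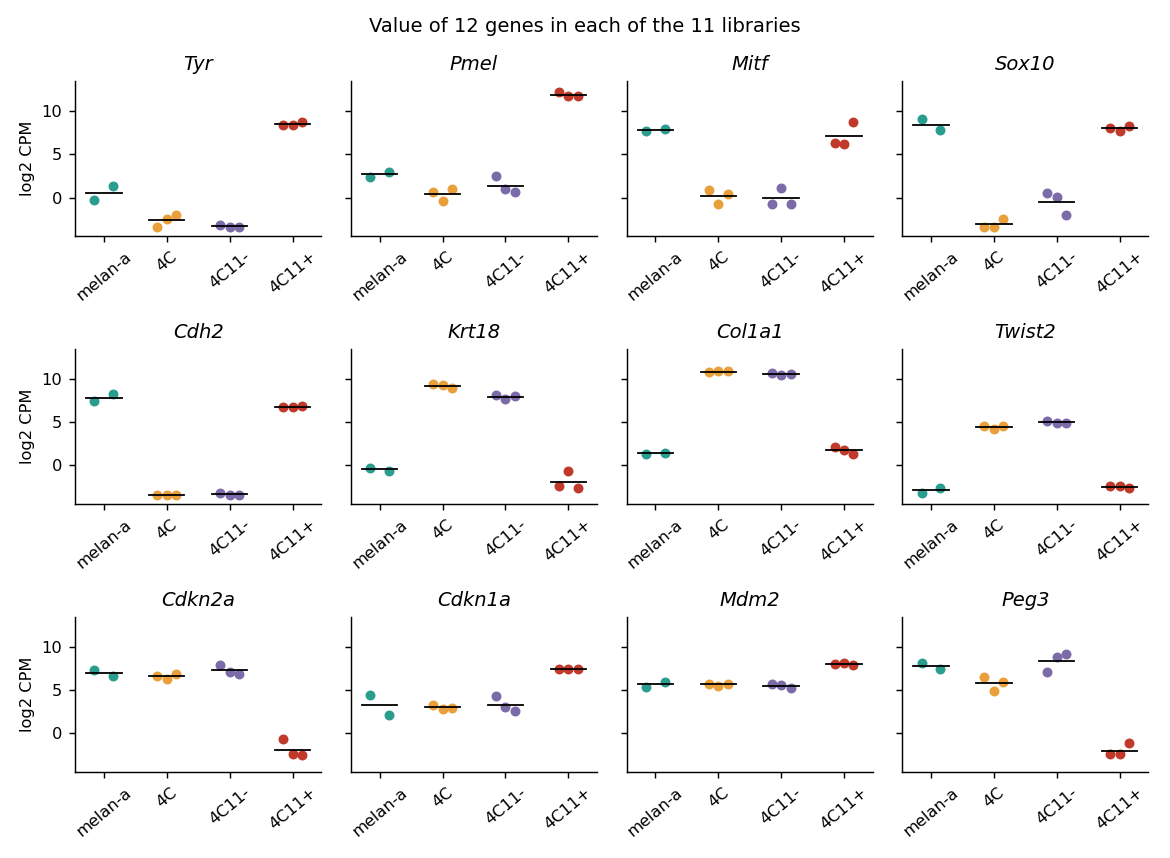
Level (log2 CPM) of 12 genes in each of the 11 libraries of melan-a, 4C, 4C11- and 4C11+, with points for libraries and a bar at the mean of each line. Of 4C11- and 4C11+, with 3 libraries each, Tyr, Pmel, Mitf, Sox10, Cdh2, Cdkn1a and Mdm2 lie higher in 4C11+. Krt18, Col1a1, Twist2, Cdkn2a and Peg3 lie higher in 4C11-, in each case without overlap between these lines.

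Factors that drive EMT were expressed in the non-metastatic line. Of 10 measured, 6 were lower in 4C11+, 0 higher and 4 not called, 60% called beside 31.1% over all genes. The 6 were absent from 4C11+. The median was -4.21 as fitted and -2.59 with absent genes at their bounds. Twist2 read 5.17, 4.87 and 4.89 in 4C11- and -2.44, -2.44 and -2.58 in 4C11+ (at least 4.95 lower, adjusted p = 8.62e-08). Snai1 read 5.99, 5.16 and 5.13 against -2.44, -0.70 and -2.58, and Zeb1 4.04, 5.26 and 5.23 against -2.44, -2.44 and -2.58. The bounds were 5.40 for Snai1, 4.82 for Zeb1, 5.02 for Prrx2, 3.19 for Twist1 and 1.99 for Foxc2. The melanocytic members of these families were not called: Zeb2 read 3.88, 6.12 and 6.27 against 6.6, 5.96 and 8.33 (adjusted p = 0.101), and Snai2 1.13, -2.01 and -0.70 against 0.15, 0.15 and 0.88 (adjusted p = 0.358). Tcf3 and Tcf4, the E-proteins, differed by -0.71 (adjusted p = 0.0503) and -0.79 (adjusted p = 0.305).

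The epithelial form of 4C11+ cells was not matched by epithelial keratin or E-cadherin RNA. Of 30 listed junction and epithelial splicing genes 13 were measured. Of these 4 were higher, 4 lower and 5 not called, 61.5% called beside 31.1% over all genes. Cdh1 (E-cadherin) was low in both lines, at 1.35, 1.36 and 0.42 in 4C11- and 0.44, -0.24 and -0.70 in 4C11+ (adjusted p = 0.15). Krt18, a keratin of simple epithelia, read 8.18, 7.64 and 8.08 in 4C11- against -2.44, -0.70 and -2.58 in 4C11+ (at least 7.95 lower in 4C11+, adjusted p = 4.83e-08). In 4C it read 9.40, 9.36 and 8.94 and in melan-a -0.25 and -0.70. Jup (plakoglobin) read 7.86, 7.63 and 7.07 against 2.09, 2.67 and 2.32, a difference of -5.16, and Ocln (occludin) and the epithelial factor Elf3 were absent from 4C11+, with bounds of 1.18 and 2.97. Genes higher in 4C11+ included Pkp2 (3.94), Tjp3 (at least 3.0) and Cldn12 (1.93), which encode a desmosomal plaque protein, a tight junction scaffold and a claudin. Cdh2 (N-cadherin), a cadherin of neural tissue and a textbook mesenchymal marker, read -3.15, -3.44 and -3.44 in 4C11- and 6.71, 6.72 and 6.84 in 4C11+, at least 8.33 higher (adjusted p = 1.64e-08). Its 4C11- libraries held 0 reads.

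Most other mesenchymal markers fell. Of 21 measured, 14 were lower in 4C11+, 4 higher (Cdh2, Postn, Eng and Vim) and 3 not called (median -3.0). The share called was 85.7%, beside 31.1% over all genes. Col1a1, the major fibrillar collagen chain, read 10.74, 10.42 and 10.55 against 2.16, 1.78 and 1.32, a difference of -8.81 ± 0.23 (adjusted p = 2.35e-09). Acta2 (smooth muscle actin) read 8.61, 8.35 and 8.44 against 0.15, -2.44 and -1.16, and Tnc (tenascin C, a matrix glycoprotein) 9.41, 8.61 and 8.6 against -0.70, -0.70 and -1.16. They were absent from 4C11+, with bounds of 8.44 and 8.85. Pdgfra, a receptor of mesenchymal cells, fell by 5.71 on the log2 scale, Fn1 (fibronectin) by 3.22 and Ncam1 by 3.0. Vim (vimentin) rose slightly, from 10.15, 10.18 and 9.97 to 11.16, 10.91 and 11.16, and Sparc, a matricellular protein, read 10.27, 10.04 and 10.03 against 10.12, 9.94 and 10.03 (adjusted p = 0.855).

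Matrix genes moved in both directions, more of them downward. Among 29 collagens, laminins, basement membrane proteins and collagen-modifying enzymes, 17 were lower and 4 higher (median -2.04), 72.4% called beside 31.1% over all genes. The collagen VI chains were largely lost. Col6a2 read 8.49, 8.50 and 7.90 against -2.44, -0.24 and -2.58 (at least 8.27 lower), Col6a1 differed by -9.33 and Col6a3 by -8.24. The crosslinking enzyme Loxl1 read 7.30, 6.55 and 6.09 in 4C11- and was absent from 4C11+. Lama5 fell by 4.02, Lama1 by at least 3.95, and the laminin γ chain Lamc3, outside the list, by at least 8.27, while Lama4 and Lamb1 rose by 2.68 and 4.31. The nidogens, which link laminin to collagen IV, exchanged places. Nid2 read 8.15, 7.85 and 7.56 against 2.78, 3.32 and 2.54, and Nid1 -1.01, -3.44 and -3.15 against 5.03, 4.95 and 4.63. Col5a3 rose by 6.71 where Col5a1 fell by 3.96. Hspg2 (perlecan), among the most abundant RNAs that fell, read 10.42, 9.91 and 9.66 against 7.90, 7.78 and 8.18. The small proteoglycan Bgn was absent from 4C11+, with a bound of 8.94, and the microfibril protein Fbn2 with a bound of 7.69.

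Proteases of the matrix moved in both directions as well. Of 26 metalloproteases, plasminogen activators and inhibitors, 5 were higher, 9 lower and 12 not called (median -0.67), 53.85% called beside 31.1% over all genes. Without 4C11+ replicate 3 the count of higher genes was 3. Mmp2, a gelatinase, read 7.14, 6.88 and 6.41 against 3.27, 2.81 and 2.92, a difference of -3.81 ± 0.41. The plasminogen activator Plat differed by -4.43. Mmp14, which activates Mmp2 at the cell surface, read 8.88, 8.65 and 7.93 against 7.62, 7.21 and 7.53 (adjusted p = 0.0888). Adam12, a membrane metalloprotease, was the exception in size: it was absent from 4C11- and read 4.44, 5.11 and 5.81 in 4C11+ (at least 6.69 higher). Mmp17, Timp3, Adamts1 and Adam10 rose by 3.42, 2.23, 1.49 and 1.48. Among 17 integrins, 4 were higher and 4 lower, 47.1% called beside 31.1% over all genes. Itga3, the α chain of a laminin receptor, read 8.82, 8.2 and 8.34 against 1.70, 1.68 and 1.04 (adjusted p = 1.64e-08), and the collagen receptor chain Itga11 and the fibronectin receptor chain Itga5 fell by 4.28 and 1.68. Itga6, another laminin receptor chain, read 5.69, 5.98 and 6.11 against 7.98, 7.96 and 8.56, and its partner Itgb4 rose by 4.08. Itgb3 and Itga8 rose by 2.89 and 4.48, and Itgb1, the common partner of many α chains, read 9.07, 9.07 and 9.31 against 9.10, 8.87 and 9.21 (adjusted p = 0.812).

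Markers of the invasive or dedifferentiated melanoma state were mostly lower in 4C11+ than in 4C11- cells. Of 17 measured, 11 were lower in 4C11+, 1 higher and 5 not called (median -2.37), 70.6% called beside 31.1% over all genes. The list averaged 4.0 to 4.5 in the 4C11- libraries and 2.3 in every 4C11+ library. In 4C it averaged 4.4 to 4.5 and in non-metastatic melan-a 2.9 and 2.2, so it was higher in both mesenchymal lines. Axl, a receptor tyrosine kinase of that state, read 9.23, 8.32 and 8.16 against 5.24, 5.59 and 5.52, a difference of -3.12 ± 0.40. Egfr read 4.29, 5.13 and 4.80 in 4C11- and was absent from 4C11+ (at least 4.71 lower). The ectonucleotidase Nt5e was absent from 4C11+ too, with a bound of 4.35, and the neural crest factor Sox9 fell by 3.59. The AP-1 subunit Jun and the YAP/TEAD targets Ccn2 and Ccn1 differed by -2.72, -2.93 and -2.37. The one riser was Ngfr, the receptor of neural-crest-like melanoma cells, at 0.48, 0.60 and -1.5 against 3.53, 3.44 and 4.39 (adjusted p = 0.00219). Among 26 adhesion, receptor and suppressor genes associated with metastasis, 6 were higher and 8 lower, 53.85% called beside 31.1% over all genes. The lower count was 5 without 4C11- replicate 1, 4C11+ replicate 2 or 4C11+ replicate 3. Met, the receptor of hepatocyte growth factor, read 2.73, 3.42 and 3.65 against 7.07, 6.84 and 7.59. L1cam, a neural adhesion molecule, rose by 4.78. The secreted phosphoprotein Spp1 (osteopontin) read 6.26, 7.11 and 6.88 against 0.15, 1.32 and 1.70, and Nedd9, a scaffold for focal adhesion signalling, 7.47, 7.53 and 7.21 against 2.69, 2.52 and 1.70. Of the genes known as metastasis suppressors, Cd82 fell by 1.17 and Gsn by 2.66, while Nme1 and Map2k4 rose by 1.03 and 1.26.

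Cdkn2a and Cdkn2b RNA were absent from the metastatic line, and several targets of p53 were higher in it. Of 29 genes of the G1 checkpoint and p53 pathway, 8 were higher, 5 lower and 16 not called, 44.8% called (31.1% over all genes). The lower count was 3 without 4C11- replicate 2 or 3 or without 4C11+ replicate 1 or 2. Cdkn2a, which encodes p16INK4a and p19ARF (GRCm38 chr4:89274471-89294653), read 7.90, 7.13 and 6.87 in 4C11- and -0.70, -2.44 and -2.58 in 4C11+ (at least 7.28 lower, adjusted p = 1.13e-07). Cdkn2b (p15INK4b, chr4:89306299-89311039) read 5.64, 5.04 and 4.78 against -2.44, -2.44 and -2.58 (at least 5.13 lower). The gene-level table cannot separate p16INK4a from p19ARF, which share exons of Cdkn2a. Among p53 targets, the kinase inhibitor Cdkn1a (p21) read 4.29, 3.0 and 2.58 against 7.48, 7.46 and 7.46, a difference of 4.18 ± 0.56. Ccng1 (cyclin G1) read 3.68, 5.60 and 6.07 against 9.24, 9.26 and 9.40, also a difference of 4.18. In each the libraries of the lines did not overlap. Mdm2, the ubiquitin ligase of p53 and itself a target, read 5.74, 5.58 and 5.25 against 8.06, 8.14 and 7.87, a difference of 2.5 ± 0.22 (adjusted p = 7.05e-06). Zmat3, Bbc3 and Bax rose by 2.82, 2.15 and 0.99, and Trp53 RNA itself fell by 1.60. Sesn1, Sesn2 and Gadd45a, also p53 targets, differed by -0.40, 0.83 and -0.41 and were not called. Among cyclins and kinases of G1, Ccnd3 and Cdk2 rose by 1.0 and 0.99, Ccnd1 fell by 0.90, and Cdk4 read 8.43, 8.41 and 8.06 against 8.21, 8.28 and 8.66 (adjusted p = 0.773).

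Few genes of DNA replication and mitosis were called. Of 36, 1 was higher (Ccnb2, 0.80), 3 were lower and 32 were not called, a share of 11.1% called beside 31.1% over all genes. The lower genes were Kif20a (-1.34), Bub1b (-1.20) and Cenpa (-0.94), which act in cytokinesis, the spindle checkpoint and the centromere. The libraries of the lines did not overlap for 16 of the 36, beside 47% over all genes, and 5 genes were lower without 4C11+ replicate 3. Ccnb2 was not called without 4C11- replicate 2, 4C11+ replicate 1 or 4C11+ replicate 3. Mki67, the usual marker of cycling cells, read 5.07, 8.53 and 9.73 in 4C11- and 7.35, 6.34 and 8.78 in 4C11+, a spread within each line larger than the difference between them. Mcm2 and Pcna, which act at the replication fork, differed by -0.22 (adjusted p = 0.647) and -0.14 (adjusted p = 0.815).

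Canonical histone genes, which proliferating cells transcribe during S phase, fell in a group that followed their position on the chromosome. The libraries were made from total RNA depleted of ribosomal RNA, so that histone RNAs, which carry no poly(A) tail, were retained. Of 55 measured, 22 were lower in 4C11+, 2 higher and 31 not called, 43.6% called beside 31.1% over all genes. In the Hist1 region of chromosome 13 (GRCm38) the genes form 3 clusters. All 14 genes of the first, at chr13:21715763-21832196, were lower, and 12 of them were absent from 4C11+. Their median was -8.46 as fitted and -7.0 with absent genes at their bounds. In the middle cluster, chr13:22035164-22043676, 3 of 5 were lower (median -1.44). In the last, chr13:23531050-23764406, 5 of 29 were lower and 1 higher (median -0.63), and of 7 canonical histone genes on other chromosomes 1 was higher and 0 lower.

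Hist1h1b, the linker histone H1.5 gene of the first cluster, read 8.47, 9.09 and 9.05 in 4C11- and -0.70, 0.15 and -2.58 in 4C11+ (at least 8.85 lower, adjusted p = 7.01e-07). The H2B genes Hist1h2bm, Hist1h2bn and Hist1h2bl were absent from 4C11+ as well, with bounds of 8.15, 8.38 and 6.97. In 4C11- cells Hist1h2bm read 7.89, 8.53 and 8.10, and Hist1h2bl read 7.01, 7.22 and 6.76. In the last cluster Hist1h3b, Hist1h3d, Hist1h1a and Hist1h2bf differed by -6.88, -6.62, -5.18 and -5.15, and the testis linker histone Hist1h1t rose by 3.88. Hist2h2be, a replication-independent member on another chromosome, rose by 3.22. Canonical histone genes of one type are nearly identical in coding sequence, so the value of a single gene is uncertain. Summed over the 6 H1 genes on the deposited scale, the level ran from 3178 to 4082 CPM in 4C11- and from 1565 to 2528 CPM in 4C11+. The sum over the 13 H2B genes was 2485 to 3379 CPM against 1044 to 1802 CPM, that over the 10 H3 genes 1232 to 1830 CPM against 553.9 to 1073 CPM and that over the 13 H4 genes 3137 to 4344 CPM against 1487 to 2751 CPM. These 4 sums did not overlap between the lines, whereas that of the 13 H2A genes did, at 229.6 to 470.7 CPM against 143.5 to 231.4 CPM. For H1 the sum was 785.5 and 2561 CPM in melan-a and 1468 to 2817 CPM in 4C. For every type the 4C11+ sums lay between the melan-a values. The 4 sums without overlap were higher in every 4C11- library than in any melan-a or 4C library.

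**Figure D3:**
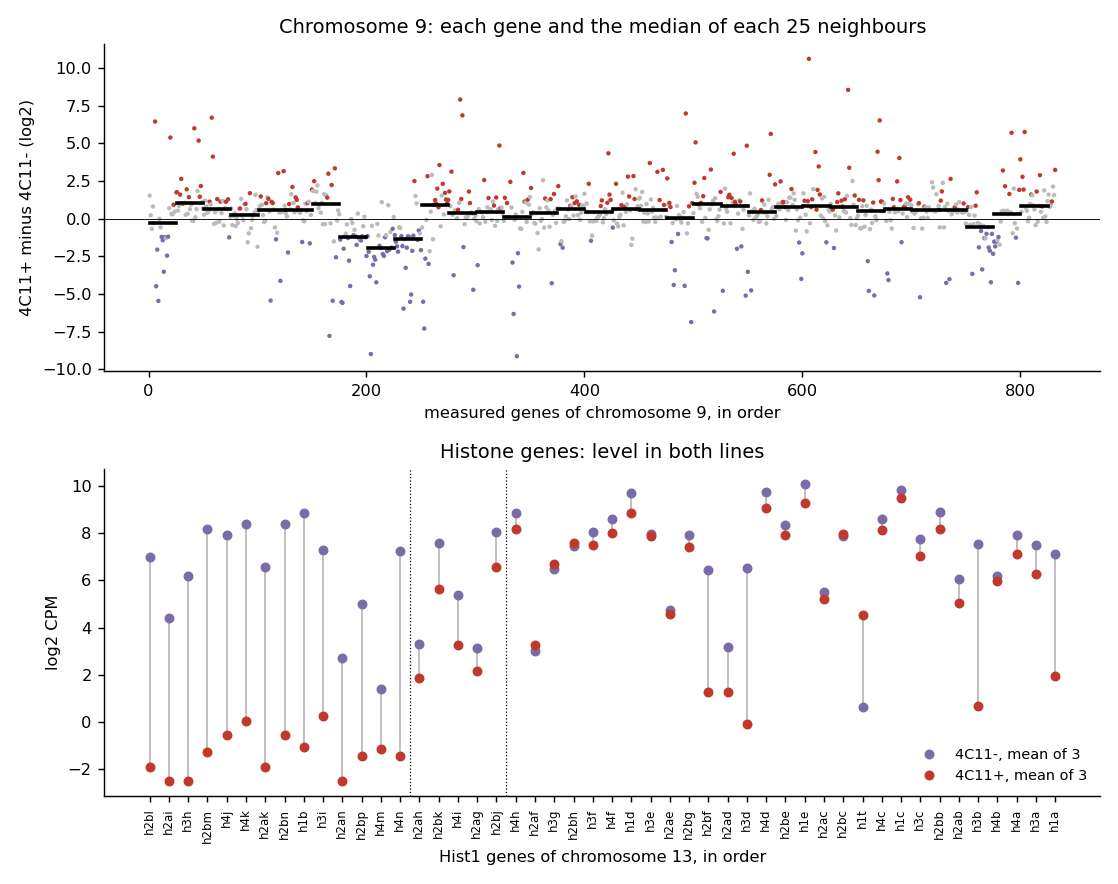
Above, the difference between the lines (4C11+ minus 4C11-, log2) for the genes of chromosome 9 in order, with the medians of windows of 25 genes. Below, the mean level (log2 CPM) of each Hist1 gene of chromosome 13 in order in both lines, with dotted lines between the 3 clusters. One stretch of chromosome 9 lies below 0 where its flanks lie above, and the first Hist1 cluster is near the floor in 4C11+.

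Other chromatin genes changed by much less. Of 48 histone lysine methyltransferases and demethylases, 3 were higher and 10 lower, 27.1% called beside 31.1% over all genes. The higher count was 1 without 4C11- replicate 2 or 4C11+ replicate 1 and 5 without 4C11- replicate 3, and the lower count was 6 without 4C11- replicate 2, 4C11+ replicate 1 or 4C11+ replicate 2. Kmt2a, the MLL1 methyltransferase, read 6.83, 7.46 and 8.02 against 5.15, 5.04 and 5.95, a difference of -2.06, and Kdm5c, an H3K4 demethylase, 7.59, 7.65 and 7.30 against 5.35, 5.62 and 6.10. Phf8, Kdm1a and Ehmt1 fell by 1.45, 1.08 and 1.14, and Kdm3a, an H3K9 demethylase, rose by 1.70. Of 27 acetyltransferases and deacetylases, 4 were higher and 6 lower, 37% called beside 31.1% over all genes. These counts were 1 and 3 without 4C11- replicate 2, 4C11+ replicate 1 or 4C11+ replicate 2, and 2 were higher without 4C11- replicate 3. Hdac7 read 7.19, 7.13 and 6.92 against 4.62, 4.36 and 4.10, Hdac8 5.15, 4.47 and 4.30 against 2.73, 2.52 and 3.42 and Hdac1 8.07, 7.68 and 7.89 against 6.51, 6.12 and 6.65. Hdac9 rose by 3.02 from a level near the floor.

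Most genes of the interferon response and of antigen presentation were lower in 4C11+ than in 4C11-. Of 38 interferon genes measured, 23 were lower, 1 higher (Mx1) and 14 not called (median -1.94), 63.2% called beside 31.1% over all genes. The list averaged 5.47, 4.26 and 4.07 in the 4C11- libraries and 2.59, 2.48 and 2.35 in the 4C11+ libraries. In melan-a it averaged 3.8 and 2.4 and in 4C 3.5 to 3.9. 4C11- replicate 1 was thus the highest library, and without it 22 genes were lower. The lower count was 20 without 4C11+ replicate 1 or 2 and 21 without 4C11- replicate 2 or 4C11+ replicate 3. Without 4C11- replicate 3 it was 26. Oasl2 and Oasl1, of the oligoadenylate synthetase family, were absent from 4C11+, each at least 5.12 lower. Isg15, a ubiquitin-like modifier, read 6.82, 5.26 and 5.25 against 0.63, 1.68 and 0.88, and the sensor Ifih1 4.33, 5.53 and 5.87 against 1.04, 1.04 and -0.24. Irf7, the factor that amplifies the response, read 5.97, 2.45 and 1.91 against 0.44, 0.44 and 0.07, with 4C11- replicate 1 far above its other replicates. Ifitm1, a restriction factor at the membrane, was absent from 4C11+, with a bound of 5.30. For MHC class I presentation, 13 of 17 genes were lower, 0 higher and 4 not called (median -1.64). The share called was 76.5%, beside 31.1% over all genes. The lower count was 11 without 4C11- replicate 1 or 2 or 4C11+ replicate 2 or 3, and 12 without 4C11+ replicate 1. Nlrc5, the transactivator of class I genes, read 6.55, 5.61 and 4.98 in 4C11- and was absent from 4C11+ (at least 5.69 lower). The heavy chain H2-K1 read 8.84, 6.79 and 6.10 against 2.37, 1.44 and 1.53, and the light chain B2m 8.58, 8.85 and 8.72 against 7.15, 6.99 and 7.08. In non-metastatic melan-a H2-K1 read -0.72 and -0.70, and in 4C 4.24, 5.88 and 6.39. The class I list averaged 5.0 and 4.1 in melan-a and 4.1 to 4.6 in 4C11+. It averaged 6.0 to 6.5 in 4C and 6.1 to 7.1 in 4C11-, so it was higher in both mesenchymal lines. The peptide transporter Tap2 fell by 4.93 and the immunoproteasome subunit Psmb9 by at least 3.97. The H2 heavy chain genes are closely related, and reads may be shared among them.

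**Figure D4:**
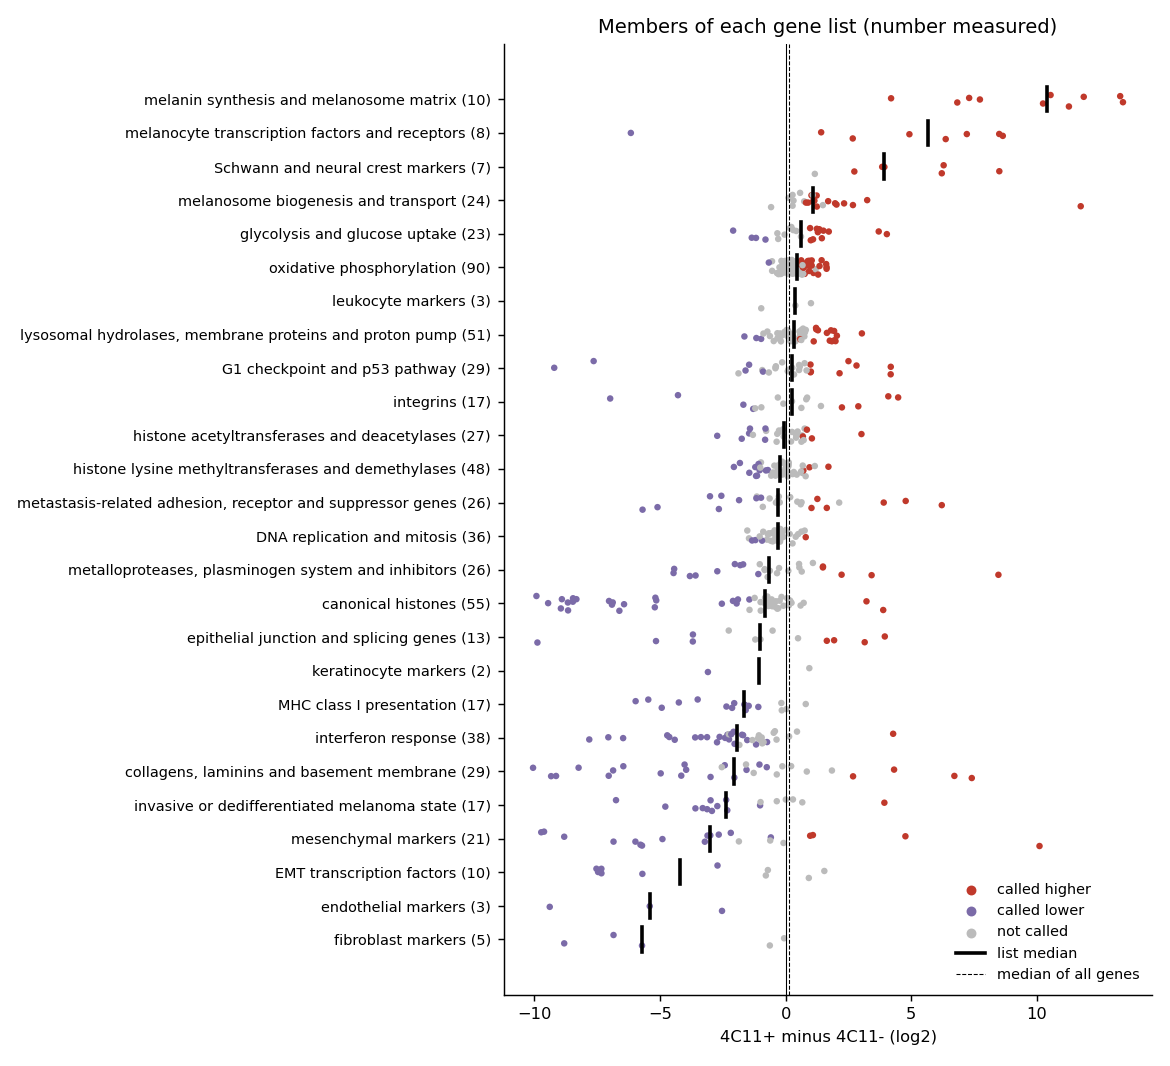
Difference between the lines (4C11+ minus 4C11-, log2) for the members of each gene list, with a point per gene, a bar at the list median and a dashed line at the median of all genes, 0.12. Melanin genes (median 10.39) stand highest, and EMT factors (-4.21 as fitted), mesenchymal markers (-3.0) and invasive-state genes (-2.37) lie below the dashed line.

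Some of the genes of glycolysis, respiration and the lysosome rose, most by small amounts. Of 23 genes of glycolysis and glucose uptake, 11 were higher and 4 lower (median 0.61), 65.2% called beside 31.1% over all genes. Gapdh read 9.77, 9.61 and 9.67 against 11.11, 11.27 and 11.19, Gpi1 7.77, 7.43 and 7.09 against 9.16, 9.32 and 8.96 and Ldha 9.49, 9.44 and 9.21 against 10.33, 10.42 and 10.66. The neuronal enolase Eno2 and the lactate exporter Slc16a3 differed by 4.03 and 3.70 from levels near the floor, and the transporter Slc2a4 fell by 2.09. Of 90 genes of oxidative phosphorylation, 26 were higher, 1 lower (Atp5l) and 63 not called (median 0.44), 30% called beside 31.1% over all genes. Atp5l was called lower in the fit without 4C11- replicate 3 and in none of the fits without another library of the 2 lines. The higher count depended on single libraries, at 12 without 4C11+ replicate 1, 13 without 4C11+ replicate 2 or 4C11- replicate 2, 15 without 4C11- replicate 3 and 30 without 4C11- replicate 1. Ndufs8, a complex I subunit, read 5.07, 4.96 and 4.62 against 6.61, 6.86 and 6.07, and Uqcrc1, of complex III, 7.75, 7.58 and 7.35 against 8.64, 8.63 and 8.52. Of 51 lysosomal genes, 14 were higher and 3 lower, 33.3% called beside 31.1% over all genes. The lower count was 0 without 4C11- replicate 1 or 4C11+ replicate 3 and 1 without 4C11+ replicate 1 or 2. Naglu and Hexa, hydrolases of glycans and gangliosides, rose by 3.03 and 2.04, Ctsd by 1.94, and 7 of the higher genes encode the proton pump that acidifies lysosomes and melanosomes, among them Atp6v1a (1.80) and Atp6v0a1 (1.76).

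Of the endothelial, fibroblast, keratinocyte and leukocyte markers measured, those that were called were lower in 4C11+. The 3 endothelial genes measured were all lower in 4C11+. Leaving out any single library of the compared lines other than 4C11- replicate 3 gave a count of 2. Cdh5 (VE-cadherin) read 6.73, 7.43 and 6.54 in 4C11- and -2.44, -2.44 and -2.58 in 4C11+, at least 6.87 lower, Flt1 was lower by at least 3.48, and Vwf fell by 2.53. The other 7 listed endothelial genes, Pecam1 and Kdr included, were not among the genes measured. The 3 leukocyte genes measured were not called, the keratin Krt10 was lower by at least 0.58 and was the 1 called of 2 keratinocyte genes, and 3 of 5 fibroblast genes (Col1a1, Col3a1 and Pdgfra) were lower. The endothelial list averaged 3.72 to 4.85 in the 4C11- libraries and -1.80 to -0.90 in the 4C11+ libraries. The fibroblast list averaged 5.51 to 6.58 in the 4C11- libraries and 1.35 to 1.70 in the 4C11+ libraries. The part of other cells in the results was not tested.

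Further genes named for the size of their change belonged to growth factor, neuronal and imprinted groups. Igfbp5, a binding protein of insulin-like growth factors, read 8.26, 8.55 and 8.39 in 4C11- and -2.44, -2.44 and -2.58 in 4C11+ (at least 8.38 lower). The growth factor Igf2 read 8.72, 8.83 and 8.50 against -2.44, -0.70 and -1.16 (at least 8.66 lower), and Peg3, a zinc finger gene expressed, like Igf2, from the paternal allele, 7.05, 8.87 and 9.17 against -2.44, -2.44 and -1.16 (at least 8.34 lower). Gli2, an effector of hedgehog signalling, was absent from 4C11+, with a bound of 7.87. On the other side, the carbonic anhydrase Car6 was absent from 4C11- and read 7.95, 8.01 and 8.50 in 4C11+ (at least 9.73 higher). The neuronal adhesion molecule Nrcam, the netrin receptor Unc5c, the lens protein Bfsp2 and the kinase Prkcq (PKCθ) were also absent from 4C11-, with bounds of 9.41, 9.04, 8.85 and 9.16. Among abundant RNAs that fell, the ribosomal protein gene Rps25 read 11.72, 11.64 and 11.72 against 9.58, 9.53 and 9.39 and Ahnak 9.71, 11.72 and 11.91 against 7.99, 7.41 and 7.87.

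Melan-a and 4C are the other epithelial and mesenchymal lines of the series, and the change from 4C to melan-a shares no library with that from 4C11- to 4C11+. Between them 2167 genes (15.2%) were called, from 2 melan-a and 3 4C libraries, and the melan-a libraries correlated with each other at 0.907. In this pair the epithelial line is also the unselected melanocyte and the only one given PMA. Of the genes called in the 4C11 pair, 1246 were called in the same direction in the other, 28.1% of the 4433 calls and 57.5% of the 2167. Of these 557 were higher and 689 lower in both epithelial lines, and 123 genes were called in opposite directions. The difference between the pairs itself passed the test for 1403 genes (9.83%), 564 in the positive direction and 839 in the negative.

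For several genes of the mesenchymal and melanocyte programs the pairs changed in the same direction and their difference was not called, which does not show that they changed alike. Krt18, absent from melan-a and 4C11+, was at least 7.95 lower in the 4C11 pair and at least 9.63 lower in melan-a than in 4C (adjusted p of the difference = 0.909). Col1a1 differed by -8.81 and -9.46, which differ by 0.65 ± 0.35 (adjusted p = 0.274). Twist2 was lower by at least 4.95 and 4.84, and Cdh2 higher by at least 8.33 and 9.10. Dct differed by 13.31 and 10.36, which differ by 2.95 ± 1.23 (adjusted p = 0.158). The 9 Hoxc genes on chromosome 15 were all lower and absent in 4C11+, with medians of -2.97 in the 4C11 pair and -3.14 in the other with absent lines at 3 reads (-5.48 and -4.99 as fitted), and the adjusted p of the difference between the pairs ran from 0.446 (Hoxc11) to 0.987 (Hoxc9). Hotair, the long noncoding RNA between Hoxc11 and Hoxc12, read 1.57, 1.44 and 2.09 in 4C11- and -2.44, -2.44 and -2.58 in 4C11+. Homeobox genes of these clusters record the position of a cell along the body axis.

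Other genes changed in the 4C11 pair and not to the same extent between melan-a and 4C. Tyr read -0.25 and 1.29 in melan-a against 8.46, 8.39 and 8.70 in 4C11+, and its change was larger in the 4C11 pair by 8.71 ± 0.79 as fitted (adjusted p = 5.95e-05) and by 8.31 with 4C and 4C11-, where it was absent, at 3 reads. Pmel read 2.41 and 2.95 in melan-a, and the pairs differed by 8.27 ± 0.76 (adjusted p = 5.98e-05). For both genes every 4C11+ library lay above every melan-a library, while Tyrp1 read 8.51 and 12.63 in melan-a, on either side of the 4C11+ values. Cdkn2a read 7.36 and 6.59 in melan-a and 6.57, 6.32 and 6.81 in 4C. Cdkn2b read 5.26 and 3.89 in melan-a and 4.61, 4.54 and 4.86 in 4C. Of the 4 lines 4C11+ was thus the one that lacked both genes (differences between the pairs of at least 7.68 and 5.03 in the negative direction, adjusted p = 1.30e-05 and 1.98e-05). Cdkn1a and Ccng1 differed between the pairs by 3.94 and 4.72. Of the first histone cluster, 13 of 14 genes differed between the pairs, and Hist1h1b read 6.86 and 9.04 in melan-a.

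The genes named for the largest fitted differences between the pairs were each absent from at least 1 line, so that the order rests in part on where 0 reads fall, and their differences are given as bounds with absent lines at 3 reads. In the positive direction they were Dirc2 (at least 10.98), Nup210 (8.87), Xlr3c (6.54), Pros1 (8.14) and Cth (6.20). Dirc2, a lysosomal membrane transporter, read -2.01, -3.15 and -3.44 in 4C11-, 5.92, 6.10 and 5.16 in 4C11+ and 3.13 and -2.58 in melan-a. The nuclear pore gene Nup210 read 1.65, 0.06 and -3.15 in 4C11-, 7.79, 7.84 and 7.92 in 4C11+ and -3.15 and -2.58 in melan-a. Pros1 (protein S, a ligand of the Mertk receptor) was absent from 4C11- and read 5.84, 5.92 and 6.40 in 4C11+ against 5.17 and 4.24 in melan-a. Xlr3c, of an X-linked multigene family whose copies may share reads, and Cth, the enzyme that makes cysteine from cystathionine, were absent from 4C11- and at least 6.58 and 5.03 higher in 4C11+. In the negative direction they were Peg3 (at least 10.39), Htr3a (6.21), Hist1h1b (8.90), Capn6 (7.74) and Cdkn2a, whose bound is given above. Peg3 read 8.14 and 7.49 in melan-a and 6.49, 4.92 and 5.90 in 4C, so 4C11+ was the 1 line that lacked it. Htr3a, a serotonin-gated channel, was absent from 4C11+ and 4C and higher in melan-a than in 4C by at least 1.42, and Capn6 rose by 1.71 in the 4C11 pair and by at least 9.46 in the other, where it was absent from 4C. The call of Capn6 in the 4C11 pair was lost when 4C11- replicate 1 or 3 or 4C11+ replicate 1 or 3 was left out.

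**Figure D5:**
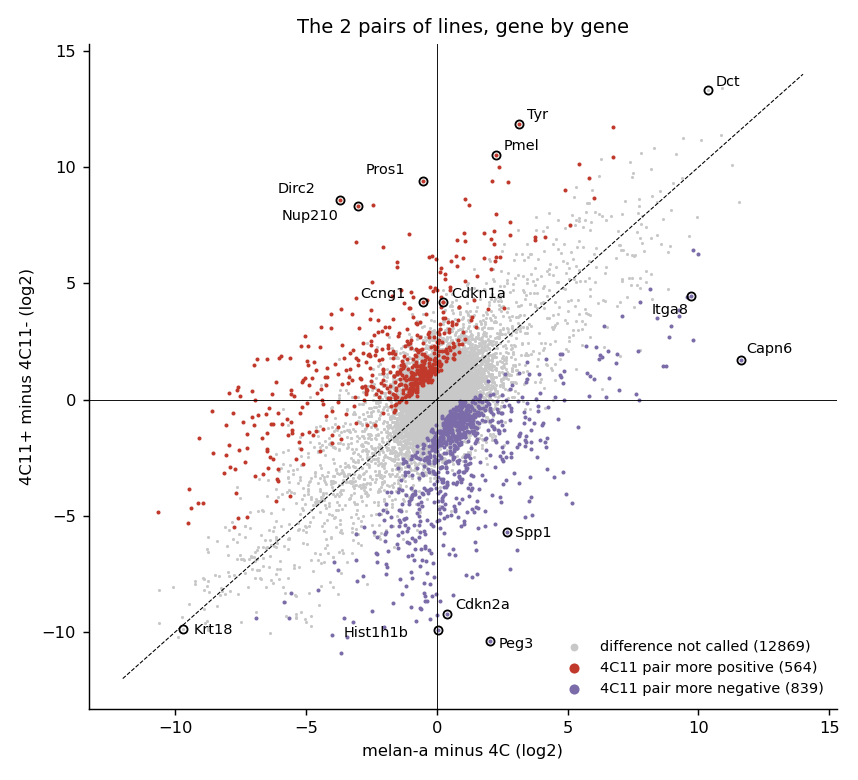
Difference between 4C11+ and 4C11- against that between melan-a and 4C (both log2), 1 point per gene, with a dashed diagonal where the pairs change alike. The genes whose difference between the pairs passed the test (564 above and 839 below the diagonal) are coloured, Tyr and Pmel far above it and Peg3 and Cdkn2a far below.

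Changes clustered along several chromosomes, in stretches that were found from these values and are given as a description. At chr4:89274471-89463487 (GRCm38) Cdkn2a, Cdkn2b and the noncoding genes Gm12609 and Gm12610 were all absent from 4C11+, and all 4 differed between the pairs. The neighbour Mtap, the nearest measured gene on the other side of Cdkn2a, read 7.86, 7.71 and 8.04 in 4C11- and 8.40, 8.43 and 8.49 in 4C11+, a rise of 0.57. The next measured protein-coding gene beyond Gm12610 is Caap1, at chr4:94500081-94556796, which differed by -0.39 and was not called. On chromosome 9, 50 of the 75 genes between 43221235 and 48495972 were lower and 1 was higher, with a median of -1.29 in the 4C11 pair and -0.11 between melan-a and 4C, and 20 differed between the pairs. The other 757 genes of the chromosome had a median of 0.55, with 197 higher and 83 lower. The stretch holds Rps25, Kmt2a and Atp5l, named above.

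Shorter runs of adjacent genes were absent from 4C11+. At chr15:74721204-75048830 these were Them6, Slurp1, Lynx1, Ly6e, Ly6a and Ly6c1, mostly membrane or secreted proteins of the Ly6 family. Ly6a (Sca-1) read 7.90, 6.28 and 6.01 in 4C11- and -2.44, -2.44 and -2.58 in 4C11+, and 4.64 and -0.70 in melan-a, whose libraries differed widely. At chr5:112910482-113650426 they were Grk3, 2900026A02Rik, Sgsm1, Wscd2 and Cmklr1, and at chr11:94343295-94521742 Abcc3, Cacna1g, Epn3 and Mycbpap. Copy number was not measured, so a lost or gained segment and a change in transcription cannot be told apart at any of these places.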

How the data were processed

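Total RNA from triplicate cultures was sequenced as stranded, ribosomal RNA-depleted libraries. Per the labels, reads were trimmed with Trimmomatic and mapped to GRCm38 with STAR. Genes were counted with Rsubread, and the authors kept genes above 1 count-per-million in at least 4 libraries. The deposited values are voom log2 counts-per-million (log2 CPM), and all libraries share 1 distribution. Counts and depth were not part of the files, and reads were estimated from the steps between the lowest values. Of 14272 genes, 14255 had a symbol in GENCODE. One melan-a culture was not analysed here.

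The log2 values of 11 libraries were fitted with limma 3.58.1 (R 4.3.3), with a mean per line and moderated variances with an intensity trend, and p-values were adjusted over all genes. Tables were made with Python 3.11.15 and pandas 2.3.3. The fit was tested on simulated data. Named genes were the 10 largest called changes each way, the 5 most abundant called genes each way, the 5 largest differences between the pairs each way and 4 per list, and a few of these are not reported here. Gene lists and the comparison were chosen with earlier results of these data known. Replicate numbers were not used as pairs in the main fit. The deviations of same-numbered 4C11- and 4C11+ libraries from their line means correlated at 0.21, -0.16 and 0.39. Whether libraries of the same number shared a batch was not tested. Other normalizations, filters, variance settings, a replicate block and each library left out were tried.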

Additional observations from a re-analysis of the deposited data

Results flagged for a closer look

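The change from 4C11- to 4C11+ differed from the change from 4C to melan-a, by the test of the difference itself, for 1403 genes. Values here are that difference between the pairs on the log2 scale, positive where the change was more upward in the 4C11 pair. Of the 43 named genes given here 25 were absent from at least 1 of the 4 lines, where the fitted value depends on the place of 0 reads and is no bound. With absent lines at 3 reads all 25 kept their sign, and the values that shrank by over 1.5 times were those of Zeb1 (to -1.03), Oasl2 (-3.17), Itga8 (-3.40), Fbn2 (-4.26), Igfbp5 (-4.73), Htr3a (-6.21), Cth (6.20) and Xlr3c (6.54). Among pigment and neural crest genes these were Tyr (8.71), Pmel (8.27), Rab38 (4.99), Ngfr (4.96) and Rab32 (-3.36). Tyr and Pmel lay higher in 4C11+ than in either melan-a library, while Rab32 rose more from 4C to melan-a. In the cell cycle and p53 group they were Ccng1 (4.72), Cdkn1a (3.94), Cdkn2b (-7.55), Cdkn2a (-9.61) and Kif20a (-1.76). Among histone and chromatin genes they were Hist1h1b (-9.96), Hist1h2bm (-9.19), Hist1h2bn (-8.32), Hist1h2bl (-7.90), Hdac1 (-2.05) and Kdm5c (-1.91). Interferon and antigen presentation genes were Oasl1 (-7.97), Oasl2 (-5.10), Nlrc5 (-5.02) and Isg15 (-5.00), all more downward in the 4C11 pair. Adhesion, junction, matrix, EMT and protease genes were Spp1 (-8.38), Fbn2 (-6.77), Plat (-5.27), Itga8 (-5.24), Itga3 (-4.70), Nedd9 (-3.94), Mmp2 (-3.76), Jup (-3.70) and Zeb1 (-3.54). The growth factor genes were Igfbp5 (-7.24) and Igf2 (-6.11), and the lactate exporter and a lysosomal hydrolase were Slc16a3 (4.10) and Naglu (2.56). The abundant RNAs were Ahnak (-2.67) and Rps25 (-2.21). The remaining genes, named for their large differences, were Dirc2 (12.27), Nup210 (11.34), Xlr3c (10.79), Pros1 (9.91) and Cth (9.87) in the positive direction and Peg3 (-12.42), Htr3a (-10.09) and Capn6 (-9.92) in the negative. Melan-a was the only line given PMA and was represented by 2 libraries, so the agent, the line and the pair cannot be told apart in these differences. No group had the 4 libraries needed to look for single outlying samples.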

How the results depend on the processing

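Counts of called genes moved with the weighting of libraries and with single libraries. Limma array weights, fitted gene by gene because the default method did not converge, gave 5259 higher genes, 4510 lower genes and 2489 differences between the pairs, against 2233, 2200 and 1403. Leaving out 1 library at a time gave 1365 to 2482 higher genes, 1621 to 2191 lower genes, 770 to 1570 differences between the pairs and 1003 to 1429 genes called alike in both pairs. The lowest counts of higher genes came without 4C11+ replicate 1 (1365) and without 4C11+ replicate 2 (1415). Differences between the pairs numbered 770 and 845 without these libraries and 869 without 4C11- replicate 2. A replicate block gave 2416 higher genes, 2299 lower genes, 1314 differences between the pairs and 1291 genes alike. By their deviations, not every library correlated best with the one of its own number. A further quantile normalization, median centring, a fit without the intensity trend, robust moderation, stricter filters on low values and a fit to the 6 libraries alone kept each of these counts within 1.5 times. Of 109 named genes, 105 were past the threshold under every alternative run, 4 were not under at least 1 (Capn6, Ccnb2, Ndufaf3 and Sdhaf3), and 0 changed sign. Of the counts called in each list, 701 stayed within 1.5 times of the reported count and 79 did not. The cause of these shifts was not tested. Depth limits the values of genes with few reads, for which only a bound can be given.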

Other observations

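The Hox clusters, whose genes record position along the body axis, did not move as one. Beside the 9 Hoxc genes, of which all were lower in 4C11+, 5 of 6 measured Hoxb genes were lower, with a median of -2.22 in the 4C11 pair and -1.77 between melan-a and 4C with absent lines at 3 reads (-2.54 and -4.24 as fitted), and 2 differed between the pairs. Of 10 Hoxa genes, 4 were lower and 1 higher, with a median of 0.20 in the 4C11 pair and -2.58 between melan-a and 4C with absent lines at 3 reads (-4.82 as fitted), and 6 differed between the pairs.

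Chromosomes differed in their median change from 4C11- to 4C11+, beside 0.12 over all genes. The highest medians were 0.81 on chromosome 12, 0.56 on chromosome 6, 0.52 on chromosome 16, 0.51 on chromosome 10 and 0.47 on chromosome 9, and of the chromosomes other than Y, which had 1 gene, the lowest were -0.34 on chromosome 14 and -0.33 on chromosome 4. Copy number was not measured in these libraries.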
